A study of Mus musculus with 12 samples.

Results

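The clustered histone genes are the genes of the Hist1, Hist2, Hist3 and Hist4 loci, which encode the linker histone H1 and the core histones H2A, H2B, H3 and H4. Members were the rows of the gene table whose Ensembl identifier carried a mouse symbol beginning Hist1h, Hist2h, Hist3h or Hist4h in the GRCm38 annotation, and whose counts-per-million value (CPM) was above 1 in at least 3 of the 12 samples. Of 70 annotated genes, 32 met this rule and were tested, among 15598 tested genes of 52962 in the table. They were 3 of 6 linker genes and 29 of 64 core genes, namely 7 of 20 H2A, 13 of 19 H2B, 2 of 12 H3 and 7 of 13 H4 genes. The rule used the level of each gene, and the opposite age changes of the linker gene Hist1h1d were known when the family was chosen, so the values of Hist1h1d are given as a description without a test.

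The study collected RNA from islet cells of female NOD mice, an inbred strain that develops autoimmune diabetes spontaneously. No treatment or engineered allele was given for these mice. Cells outside the CD45+ leukocyte gate were sorted by their own fluorescence and size into β-cells and non-β-cells, at 4 and at 8 weeks of age, with 3 samples in each of the 4 groups. Islets were kept in culture overnight and dispersed with trypsin before the sort, and the methods describe each sample as a pool of mice, whereas the sample labels do not say so. The p-values therefore measure the spread between these samples. Non-β-cells are a mixture of alpha, delta, PP and other cells, and in such samples a smaller number of cells of a type and less RNA per cell cannot be told apart.

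Core histones form the octamer around which DNA is wrapped, and linker H1 proteins bind the nucleosome where DNA enters and leaves it. Transcripts of the clustered genes are made mostly in S phase, carry no poly(A) tail and end just after a conserved stem-loop that is bound by SLBP. In cells that no longer divide, some of these genes also give longer, polyadenylated transcripts, and chromatin is resupplied by replacement variants encoded elsewhere. The libraries were made from total RNA, a method that can capture transcripts with and without a poly(A) tail.

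Depth was 13755106 to 27040652 estimated counts per sample. In both 4-week groups the sample numbered 3 stood apart from the other members of its group, with chi-square values per degree of freedom of 86.7 and 94.8 in β-cells, against 26.3 between the other pair, and of 41.1 and 49.3 in non-β-cells, against 12.4. The 8-week non-β-cell sample 1 gave 25.9 and 36.8, against 9.91 between the other pair, and had the lowest linker and core sums of its group. The 8-week β-cell pairs lay between 7.94 and 10.8, so that no pair was within counting noise. Summed β-cell markers (Ins1, Ins2, Mafa, Slc2a2 and Ucn3) reached 31700 to 92000 CPM in β-cell samples and 568 to 2480 CPM in non-β-cell samples, and the alpha-cell marker Gcg, which encodes glucagon, reached 1410 to 9040 and 103000 to 133000 CPM. The leukocyte markers of the non-β-cells summed to 7.78 to 19.8 CPM, with Cd3e at 0 in all 4-week samples, and those of the β-cells to 50.9 to 77.4 CPM, with Cd3e and Lyz2 at 0 at 4 weeks and Ptprc at 0 at 8 weeks.

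Of the 32 tested members, 23 lie on chromosome 13, 7 on chromosome 3 and 2 on chromosome 11, and 27 are annotated as a single exon. To show what the transcripts share, the stem-loop was searched as the 16 bases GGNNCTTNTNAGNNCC on the transcript strand of the GENCODE M21 transcripts (GRCm38). It was found in 23 of 32 tested and 23 of 38 untested members. Several models without a match, such as those of Hist1h4k, Hist1h2bn, Hist2h2bb and Hist1h2aa, stop before the end of the RefSeq gene. A missing match therefore does not show that a gene lacks the stem-loop. The stem-loops of the 3 tested linker genes, of 2 core genes whose age changes differed between fractions and of 1 H4 gene are given with 5 bases on each side, the stem-loop in capitals.
Hist1h1c, chr13:23739507-23739532, plus strand: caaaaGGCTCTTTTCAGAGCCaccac
Hist1h1d, chr13:23555782-23555807, plus strand: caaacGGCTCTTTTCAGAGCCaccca
Hist1h1e, chr13:23621777-23621802, minus strand: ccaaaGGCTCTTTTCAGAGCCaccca
Hist1h2be, chr13:23585526-23585551, minus strand: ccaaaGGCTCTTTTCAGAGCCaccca
Hist1h2ac, chr13:23683472-23683497, minus strand: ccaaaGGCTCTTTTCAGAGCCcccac
Hist1h4h, chr13:23531453-23531478, plus strand: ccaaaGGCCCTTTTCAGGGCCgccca
The linker, H2A and H2B genes shown had the same 16 bases, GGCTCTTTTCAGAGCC, which 26 members carried in all. Hist1h4h had the form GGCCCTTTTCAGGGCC, found in 7 members.

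The annotated transcripts differed in how far they ran on past the stem-loop. Hist1h4h had 46 bases after it, whereas Hist1h1c had 840, Hist1h1e 1153, Hist1h2be 1861, Hist1h2ac 2010 and Hist1h1d 4884. More than 200 bases followed the stem-loop in 12 tested and 6 untested members, and the polyadenylation signal AATAAA was found after it in 10 and 4. The median number of bases after the stem-loop was 330.0 in tested and 42.0 in untested members. The level rule used CPM not divided by length, which favours longer models, so this difference may be in part set by the rule. The median model length was 672.5 bases in tested and 478.0 in untested members.

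The gene models of the linkers also differed between annotations. Hist1h1d (ENSMUSG00000052565, chr13:23553262-23560686, plus strand) was modelled as a single exon of 7425 bases, against 776 bases in RefSeq, where the gene is H1f3. The longer model added 1770 bases before the RefSeq start and 4879 bases after its end. Hist1h1c (ENSMUSG00000036181, chr13:23738808-23740367, plus strand) had 1560 bases against 725 in RefSeq, and Hist1h1e (ENSMUSG00000051627, chr13:23620629-23622558, minus strand) had 1930 against 782. The exon of Hist1h1e overlaps that of Hist1h2be on the same strand, and 24.5% of its 31-base words also occur in Hist1h2be. Which part of each model the reads came from was not analysed here, since the table holds 1 estimated count per gene.

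**Figure D1:**
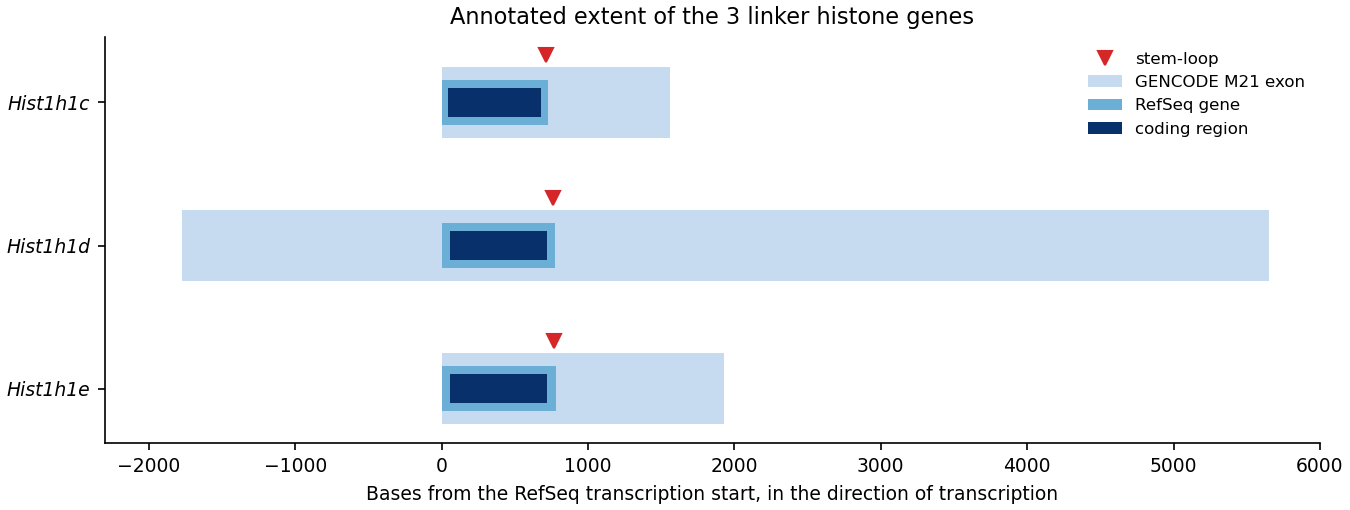
Annotated extent of the 3 tested linker genes in the GENCODE M21 and RefSeq models, with the x axis in bases from the RefSeq start in the direction of transcription. The M21 model of Hist1h1d runs 4879 bases past the RefSeq end, against 836 bases for Hist1h1c and 1148 for Hist1h1e.

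The 3 linker genes share elements of their promoters as well. The 150 bases before the RefSeq start (GRCm38.p6) are shown because all 3 genes changed with age in the same directions; capitals mark the CCAAT box, the TATA-type sequence TATAAA and an element known from H1 promoters, AAACACA, each searched on both strands.
Hist1h1c, chr13:23738657-23738806, plus strand: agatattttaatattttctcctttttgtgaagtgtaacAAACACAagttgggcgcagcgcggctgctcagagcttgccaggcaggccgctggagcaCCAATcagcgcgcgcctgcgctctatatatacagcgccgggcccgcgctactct
Hist1h1d, chr13:23554882-23555031, plus strand: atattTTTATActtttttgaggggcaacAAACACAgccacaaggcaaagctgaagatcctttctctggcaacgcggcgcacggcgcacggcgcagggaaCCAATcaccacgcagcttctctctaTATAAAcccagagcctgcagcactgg
Hist1h1e, chr13:23622559-23622708, minus strand: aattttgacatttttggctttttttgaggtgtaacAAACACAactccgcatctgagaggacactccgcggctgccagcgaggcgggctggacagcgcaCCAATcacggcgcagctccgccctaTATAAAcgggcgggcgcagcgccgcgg
AAACACA was present in 3 of 3 linker promoters and in 4 of the 28 tested members with an entry, against 3.53% of all 32851 promoters. CCAAT occurred in 22 of 28 tested and 29 of 34 untested members, against 24.5% of all promoters, and TATAAA in 11 and 13, against 7.57%. Each motif occurred at a similar share in members that met and that failed the level rule, and a match is a description of the letters only.

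The linker genes moved in opposite directions with age in the 2 fractions. Hist1h1c, Hist1h1d and Hist1h1e were higher at 8 than at 4 weeks in β-cells and lower in non-β-cells, and the order of the fractions was reversed between the ages. In none of the 4 comparisons did the samples of the groups overlap for any of the 3 genes, as was true of 20.7% of all tested genes for a higher level at 8 weeks in β-cells, 13.8% for a lower one in non-β-cells, 26.7% for a lower level in β-cells at 4 weeks and 32.4% for a higher one at 8 weeks. Samples are given in the order of their numbers 1 to 3, in CPM after TMM scaling (trimmed mean of M-values).

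Hist1h1c, a major H1 of somatic cells, read 200.3, 193 and 274 CPM in 4-week β-cells and 323, 336 and 321 CPM in 8-week β-cells. It read 291, 276 and 343 CPM in 4-week and 156, 196 and 199 CPM in 8-week non-β-cells. Every 8-week β-cell sample was above every 4-week one, and every 8-week non-β-cell sample below every 4-week one. The rise in β-cells was 0.57 on the log2 scale (SE 0.14, limma-voom adjusted p = 0.0149) and non-β-cells showed a fall (log2 difference -0.73, SE 0.14, adjusted p = 0.00323). Hist1h1c was lower in the β-cells at 4 weeks (log2 difference -0.46, limma-voom adjusted p = 0.0176) and higher at 8 weeks (0.84, adjusted p = 0.000329). The call in β-cells was lost without β-cell sample 1 or 2 at 4 weeks (limma-voom adjusted p = 0.078 and 0.0814) and without sample 1 or 2 at 8 weeks (0.0557 and 0.057). The 4-week call between fractions was lost without β-cell sample 1 or 2 or non-β-cell sample 3 of that age (limma-voom adjusted p = 0.077, 0.0837 and 0.0642) and when only the compared groups were fitted (0.0623), while the non-β-cell and 8-week calls held in every alternative.

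Hist1h1d read 9.42, 8.64 and 11.2 CPM in 4-week β-cells and 29.5, 27.7 and 23.8 CPM in 8-week β-cells. In non-β-cells it read 23.7, 18.6 and 16.3 CPM at 4 weeks and 6.15, 5.38 and 5.86 CPM at 8 weeks. The group means were 9.77 ± 1.33, 26.98 ± 2.88, 19.5 ± 3.79 and 5.79 ± 0.388 CPM (SD, n = 3), so that 8-week β-cells were highest and 8-week non-β-cells lowest, with no overlap between neighbours in this order. The log2 difference between ages was 1.47 (SE 0.17) in β-cells and -1.73 (SE 0.22) in non-β-cells. Between fractions it was -1.01 at 4 weeks and 2.19 at 8 weeks. Without both 4-week samples numbered 3, the age differences were 1.58 and -1.85.

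Hist1h1e, whose annotated exon overlaps that of Hist1h2be, read 9.21, 9.99 and 6.38 CPM in 4-week β-cells and 15.4, 15.5 and 16.5 CPM in 8-week β-cells. It read 27.3, 29.3 and 22.8 CPM in 4-week and 11.3, 8.97 and 9.51 CPM in 8-week non-β-cells. Its highest group was the 4-week non-β-cells, and the 8-week β-cells came next. It rose by 0.91 in β-cells (SE 0.18, limma-voom adjusted p = 0.00486) whereas the non-β-cells showed a fall (log2 difference -1.39, SE 0.18, adjusted p = 0.000136). The β-cells had the lower level at 4 weeks (-1.64, limma-voom adjusted p = 8.5e-06) and higher at 8 weeks (0.65, adjusted p = 0.0104). All calls of Hist1h1e held under every alternative tried.

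**Figure D2:**
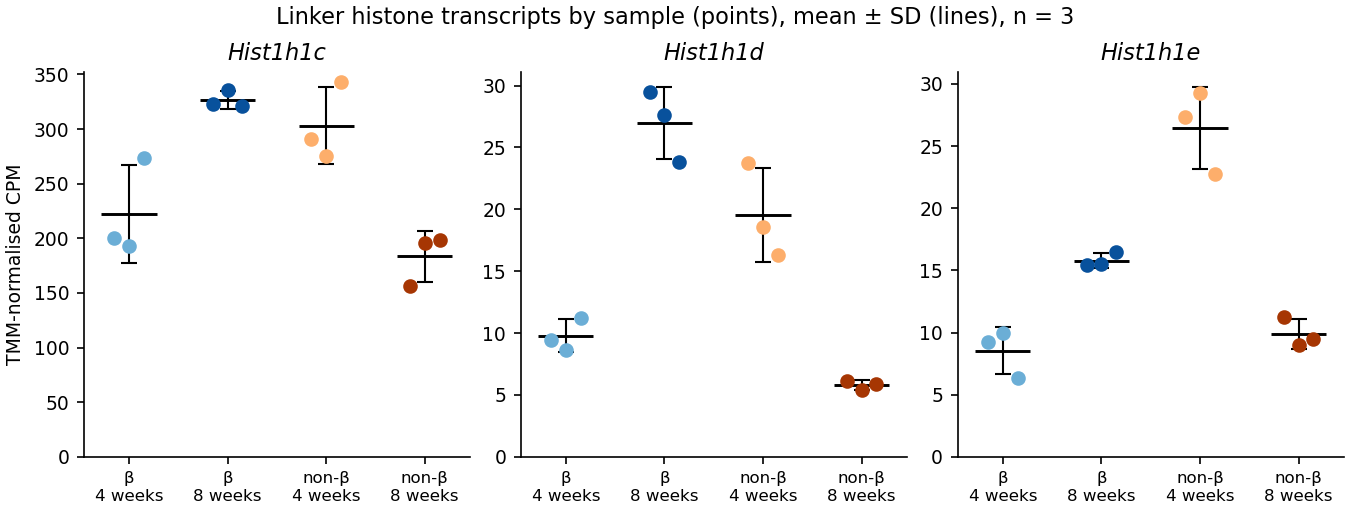
TMM-scaled CPM of Hist1h1c, Hist1h1d and Hist1h1e in each sample (points) of the 4 groups, with the group mean and SD (n = 3). In each panel the 8-week β-cell samples lie above the 4-week ones and the 8-week non-β-cell samples below, as for Hist1h1d at 23.8 to 29.5 against 8.64 to 11.2 CPM and 5.38 to 6.15 against 16.3 to 23.7 CPM.

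The difference between both age changes was 1.30 for Hist1h1c (SE 0.20, limma-voom adjusted p = 0.0024) and 2.30 for Hist1h1e (SE 0.26, adjusted p = 0.000229). For Hist1h1d, known for it beforehand, it was 3.20 (SE 0.28). Across the 12 samples, which include 4 groups of 3 and share their depth, Pearson's r of log2 CPM was 0.90 between Hist1h1c and Hist1h1d, 0.58 between Hist1h1c and Hist1h1e, and 0.68 between Hist1h1d and Hist1h1e. The remaining linker genes, Hist1h1a, Hist1h1b and the testis-type Hist1h1t, did not meet the level rule. Hist1h1a read at most 1.56 CPM, in an 8-week non-β-cell sample.

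Levels can be compared between genes only per kilobase of the annotated transcript. On that scale Hist1h1c led the family, at a mean of 165.9 CPM per kilobase over the 12 samples, followed by the H2A genes Hist1h2al at 80.1 and Hist2h2aa2 at 65.9 and the H2B gene Hist1h2bc at 39.5. Hist1h1e stood at 7.86 and Hist1h1d at 2.09. With the RefSeq lengths Hist1h1d stood at 20.0, Hist1h1e at 19.4 and Hist1h1c at 357 CPM per kilobase, so the place of Hist1h1d in the family depended on the gene model. The same held for core genes, as for the H2A gene Hist3h2a at 10.9 with M21 and 45.9 with RefSeq lengths. Hist1h1c held 86.7 to 92.2% of the summed linker CPM in the group means, and Hist1h1d held 4.08% in 4-week β-cells, 7.30% in 8-week β-cells, 5.65% in 4-week and 2.95% in 8-week non-β-cells.

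In β-cells, 6 of 32 members rose between 4 and 8 weeks and 1 fell, against 8.59% and 9.35% of all tested genes. Besides the 3 linkers, they were the H2A gene Hist1h2ac, the H2B genes Hist1h2be and Hist2h2be, and, in the other direction, the H4 gene Hist1h4h. The members' median log2 difference was 0.44, beside 0.02 over all tested genes, and 22 of 32 lay above 0. Leaving aside Hist1h1d, whose change was known beforehand, 5 of 31 rose and 1 fell, with a median of 0.40. The count fell to 3 without β-cell sample 1 or 2 at 4 weeks or sample 1 at 8 weeks, and to 4 without sample 2 or 3 at 8 weeks. It was 8, with 7 higher, without both 4-week samples numbered 3.

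Hist1h2be read 12.9, 12.1 and 14.5 CPM in 4-week β-cells and 23.2, 17.9 and 20.2 CPM at 8 weeks, without overlap (log2 difference 0.62, limma-voom adjusted p = 0.0147). Hist1h2ac read 1.68, 2.06 and 2.48 CPM and then 4.67, 3.69 and 3.93 CPM, also without overlap (0.96, limma-voom adjusted p = 0.0272). Both kept their direction but lost the call without β-cell sample 1 or 2 at 4 weeks or sample 1 at 8 weeks (limma-voom adjusted p = 0.0552, 0.077 and 0.0766 for Hist1h2be and 0.0985, 0.0911 and 0.0876 for Hist1h2ac), and Hist1h2ac also without 8-week sample 3 (0.0598). Hist2h2be read 8.75, 9.75 and 10.6 CPM and then 13.0, 14.3 and 14 CPM (0.51, limma-voom adjusted p = 0.0427), a call lost without any of 7 samples, with adjusted p up to 0.151. Hist1h4h went the other way, from 11.4, 11.9 and 16 CPM to 8.56, 4.90 and 7.54 CPM (-0.94, limma-voom adjusted p = 0.0222). This call was lost without β-cell sample 3 at 4 weeks or sample 2 or 3 at 8 weeks (limma-voom adjusted p = 0.0548, 0.114 and 0.0512) and with edgeR (adjusted p = 0.253) and DESeq2 (0.23). The H3 gene Hist2h3c2 had a larger difference that did not pass the test, from 1.27, 0.832 and 2.39 CPM to 3.01, 5.28 and 3.17 CPM (1.48, limma-voom adjusted p = 0.112).

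In the same β-cell comparison, nuclear-retained RNAs and markers of other cells also moved. Of 9 nuclear-retained RNAs, 7 rose (median log2 difference 1.70), among them Neat1 (1.85) and Malat1 (1.27), and their summed level went from 506 to 949 CPM to 2080 to 2760 CPM. The alpha-cell markers Gcg (5400 to 9040 CPM and then 1410 to 2440 CPM), Ttr (190 to 335 and 89.9 to 108 CPM) and Irx2 (7.33 to 9.54 and 4.49 to 4.81 CPM) fell, and the PP-cell marker Ppy fell from 147 to 367 CPM to 58.1 to 69.3 CPM. The acinar markers rose in 4 of 4 genes, from 63.4 to 133 CPM to 308 to 652 CPM, and 4 of 5 β-cell markers rose. The part of these shifts in the histone values was not tested. The delta-cell markers (341 to 780 CPM and 765 to 852 CPM), endothelial markers (1.98 to 8.94 and 5.97 to 7.05 CPM) and duct markers (6.86 to 12.4 and 7.12 to 10.1 CPM) had no member called in β-cells, and 1 of 5 mesenchymal and 1 of 2 tested leukocyte markers rose.

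In non-β-cells, 8 of 32 members fell between 4 and 8 weeks, against 4.8% of all tested genes, and 0 rose, against 11.6%, by limma-voom at an adjusted p under 0.05. At an unadjusted p under 0.05, 11 members differed, and edgeR and DESeq2 called 8 and 10 members. The median log2 difference of the members was -0.66, beside 0.01 over all tested genes, and 25 of 32 lay below 0. Setting aside Hist1h1d or Hist1h2bb, which the level rule favoured in 4-week non-β-cells, 7 of 31 fell, and without 8-week non-β-cell sample 1 the count was 6. Apart from the 3 linkers, the members that fell were the H2A genes Hist1h2al and Hist3h2a and the H2B genes Hist1h2bb, Hist1h2be and Hist1h2br. Without both 4-week samples numbered 3, 11 members fell.

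Hist1h2be read 20.7, 18.8 and 22.7 CPM in 4-week and 7.27, 6.65 and 9.87 CPM in 8-week non-β-cells, with every 8-week sample below every 4-week one (log2 difference -1.38, limma-voom adjusted p = 0.000213). Hist3h2a read 27.8, 33.7 and 37.0 CPM and then 11.4, 15.5 and 15.4 CPM (-1.24, limma-voom adjusted p = 0.000919), also without overlap. The calls of Hist1h2be and Hist3h2a held in every alternative. The exon of Hist3h2a overlaps that of another gene, Trim17, on the same strand. In Trim17 also occur 32.1% of its 31-base words, so the split of counts between both genes is uncertain. Hist1h2br read 7.69, 5.09 and 8.09 CPM and then 1.26, 2.47 and 2.42 CPM (-1.88, limma-voom adjusted p = 0.00259), and 89.5% of its 31-base words are shared with Hist1h2bq, so that the counts of this pair are uncertain. Hist1h2bb read 1.99, 2.25 and 1.18 CPM and then 0.216, 0.747 and 0 CPM. It met the level rule through the 4-week non-β-cell samples alone, so its lower level elsewhere was in part set by the rule and its values are a description. Hist1h2al, annotated as a pseudogene and sharing 81.9% of its 31-base words with other genes, read 21.7, 23.0 and 22.1 CPM and then 8.09, 12.6 and 15.6 CPM (-0.96, limma-voom adjusted p = 0.0144), and the call was lost without 8-week sample 1 (0.106).

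Markers of other cells rose in the same non-β-cell comparison. All 4 endothelial markers rose, from a summed 27.9 to 58.8 CPM to 232 to 668 CPM, as did all 5 mesenchymal markers (102 to 286 CPM and 633 to 978 CPM) and both duct markers (5.63 to 9.91 and 26.5 to 39.3 CPM). The acinar markers rose in 3 of 4 genes (34.1 to 72.5 CPM and 152 to 523 CPM), 2 of 5 β-cell markers rose, 1 of 2 delta-cell markers rose (4500 to 6920 and 7630 to 10900 CPM) and the alpha-cell marker Irx2 fell (158 to 177 and 114 to 125 CPM), whereas Gcg (103000 to 117000 and 111000 to 133000 CPM) and Ttr (2280 to 3030 and 1810 to 2470 CPM) did not pass the test. Ppy was not called (5550 to 6940 and 4020 to 5390 CPM). The part of these cells in the lower histone values was not tested. Of the 9 nuclear-retained RNAs, 1 rose and 1 fell in non-β-cells (median log2 difference 0.26). Their summed level there was 1770 to 3900 CPM at 4 weeks and 2570 to 4240 CPM at 8 weeks.

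**Figure D3:**
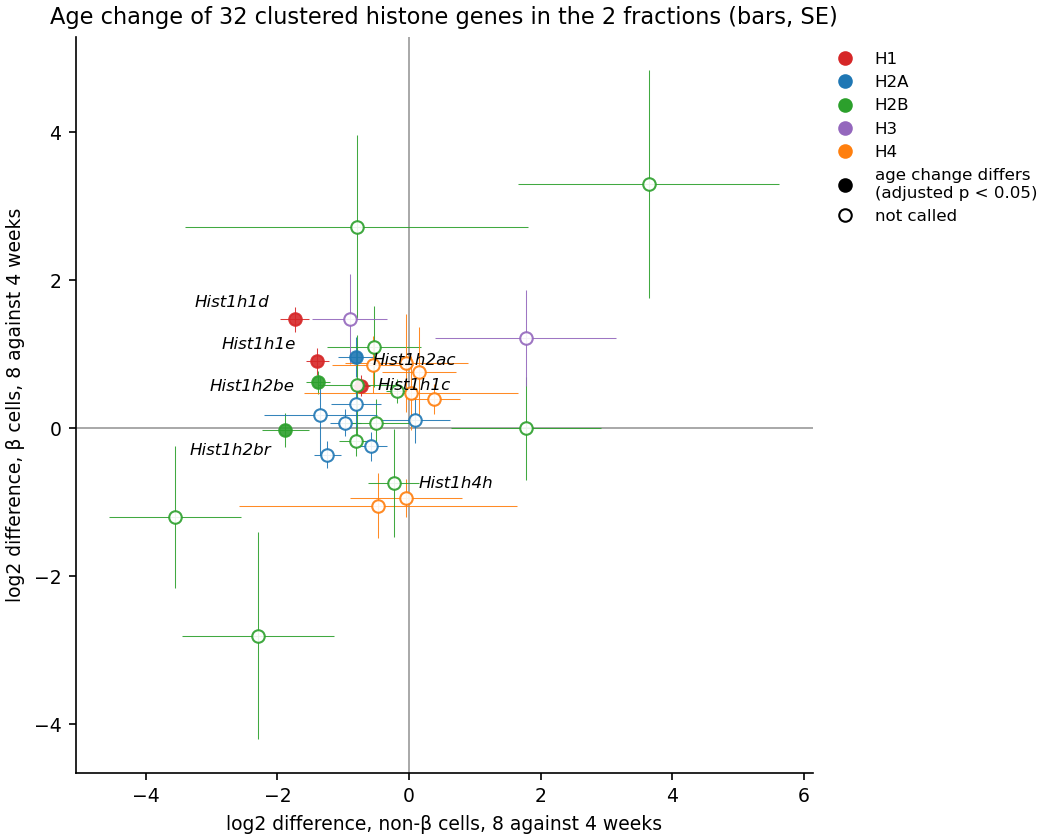
Log2 difference between 8 and 4 weeks in non-β-cells (x axis) and β-cells (y axis) for the 32 tested members, each a point with its SE, by histone type. The linker genes and Hist1h2be lie left of 0 and above 0, as Hist1h1d at -1.73 and 1.47.

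Between the fractions, the count of members that differed at 4 weeks was 15, with 8 higher in β-cells and 7 lower, against 24.9% and 23.7% of all tested genes. At 8 weeks it was 20, with 19 higher and 1 lower, against 23.6% and 25.6%. Without Hist1h1d the counts were 8 and 6 of 31 at 4 weeks and 18 and 1 at 8 weeks, and the 4-week count of lower members includes Hist1h2bb. The counts of higher members include Hist1h4h, Hist1h4j and Hist1h4n at both ages and Hist1h3e at 8 weeks. These met the level rule through β-cell samples, so their direction was in part set by the rule. The members' median log2 difference was 0.09 at 4 weeks and 1.37 at 8 weeks, beside 0 and 0.01 over all tested genes. These comparisons share their samples with the age comparisons, and the 8-week count was 12 without non-β-cell sample 1 of that age. Without both 4-week samples numbered 3 the counts were 15 and 21.

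Several H4 genes were higher in β-cells at both ages. At 4 weeks Hist1h4h read 11.4, 11.9 and 16 CPM in β-cells, against 0.612, 0.343 and 2.71 CPM in non-β-cells (log2 difference 3.95, limma-voom adjusted p = 0.000145). At 8 weeks it read 8.56, 4.90 and 7.54 CPM against 0.606, 0.822 and 1.03 CPM (3.05, limma-voom adjusted p = 0.0019). The groups did not overlap at either age. Before scaling, Hist1h4h was above 1 CPM in 7 samples, none of them 8-week non-β-cells. It met the level rule through β-cell samples, so its difference between fractions was in part set by the rule. Hist1h4i read 10.1, 10.3 and 12.3 CPM in β-cells against 2.10, 2.45 and 4.88 CPM at 4 weeks, and 15.1, 17.2 and 11.3 CPM against 2.94, 4.18 and 4.47 CPM at 8 weeks, again without overlap (1.93 and 1.94, limma-voom adjusted p at 8 weeks = 0.00016).

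Hist1h4n and Hist1h4j passed the level rule through β-cell samples alone, so that their difference between fractions was in part set by the rule. Hist1h4n read 4.22, 6.70 and 3.35 CPM in 4-week and 3.65, 2.30 and 1.44 CPM in 8-week β-cells, and at most 0.803 CPM in non-β-cells, where 4 of 6 samples read 0. Hist1h4j read 2.01 to 4.49 CPM in β-cells and 0 to 0.736 CPM in non-β-cells. Their fitted log2 differences (5.71 and 3.43 at 4 weeks, 5.13 and 3.88 at 8 weeks) depend on the handling of zeros. Both are among the members counted as higher. The summed H4 level of the tested members was 36.8 ± 2.83 and 37.4 ± 3.21 CPM in 4- and 8-week β-cells. In the other fraction it was 10.3 ± 1.35 and 10.4 ± 1.30 CPM (SD, n = 3). This sum includes Hist1h4h, Hist1h4j and Hist1h4n, which the level rule favoured in β-cells. Over all 13 annotated H4 genes, tested or not, the means were 37.2 and 38.8 CPM in β-cells, against 10.8 and 11.2 CPM.

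The H2A genes Hist1h2al and Hist2h2aa2 and the H2B gene Hist1h2bc, which had the highest levels per kilobase of the M21 models, were also higher in β-cells. At 4 weeks Hist1h2bc read 56.8, 62.4 and 97.8 CPM in β-cells, against 29.2, 22.3 and 39.4 CPM in non-β-cells. The 8-week values were 59.4, 61.8 and 66.5 CPM, against 13.9, 17.9 and 20.0 CPM, and the groups did not overlap at either age (log2 differences 1.25 and 1.89, limma-voom adjusted p at 8 weeks = 4.44e-05). Hist2h2aa2, whose 31-base words all occur in another gene, read 50.7, 43.2 and 69.2 CPM in 4-week β-cells, against 24.0, 24.4 and 21.5 CPM in non-β-cells of that age (1.19). Hist1h2al, annotated as a pseudogene, was higher in β-cells by 0.69 at 4 weeks and 1.73 at 8 weeks. It shares 79.9% of its 31-base words with Gm20632, which also holds those of Hist2h2aa2, so the counts of both are uncertain.

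The opposite order was seen in a few H2B and H2A genes. Hist3h2ba was lower in β-cells at both ages, at 2.65, 1.70 and 2.84 CPM against 6.31, 5.09 and 13.4 CPM at 4 weeks and 1.16, 1.81 and 1.16 CPM against 3.77, 11.7 and 7.5 CPM at 8 weeks (log2 differences -1.69 and -2.20, limma-voom adjusted p at 8 weeks = 0.0126). It was the 1 member lower in β-cells at 8 weeks, and its 4-week call was lost without β-cell sample 2 (limma-voom adjusted p = 0.0747). Hist1h2bb, which met the level rule through 4-week non-β-cells alone, had a log2 difference of -1.71 at 4 weeks. Hist1h2be and Hist1h2ac were lower in β-cells at 4 weeks (-0.66 and -1.04) and higher at 8 weeks (1.35 and 0.74), as the linkers were, and the 8-week call of Hist1h2ac was lost without any of 5 single samples (limma-voom adjusted p up to 0.134). The H2B gene Hist2h2bb read 1.06 to 2.93 CPM in β-cells, against 1.59 to 7.92 CPM in non-β-cells, and the groups overlapped at both ages. Among H3 genes, Hist1h3e read 1.28 to 2.08 CPM in 8-week β-cells and 0.154 to 1.20 CPM in 8-week non-β-cells (2.13, limma-voom adjusted p = 0.0472), a call lost without any of 8 single samples. Hist1h3e met the level rule through β-cell samples, so this difference was in part set by the rule.

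**Figure D4:**
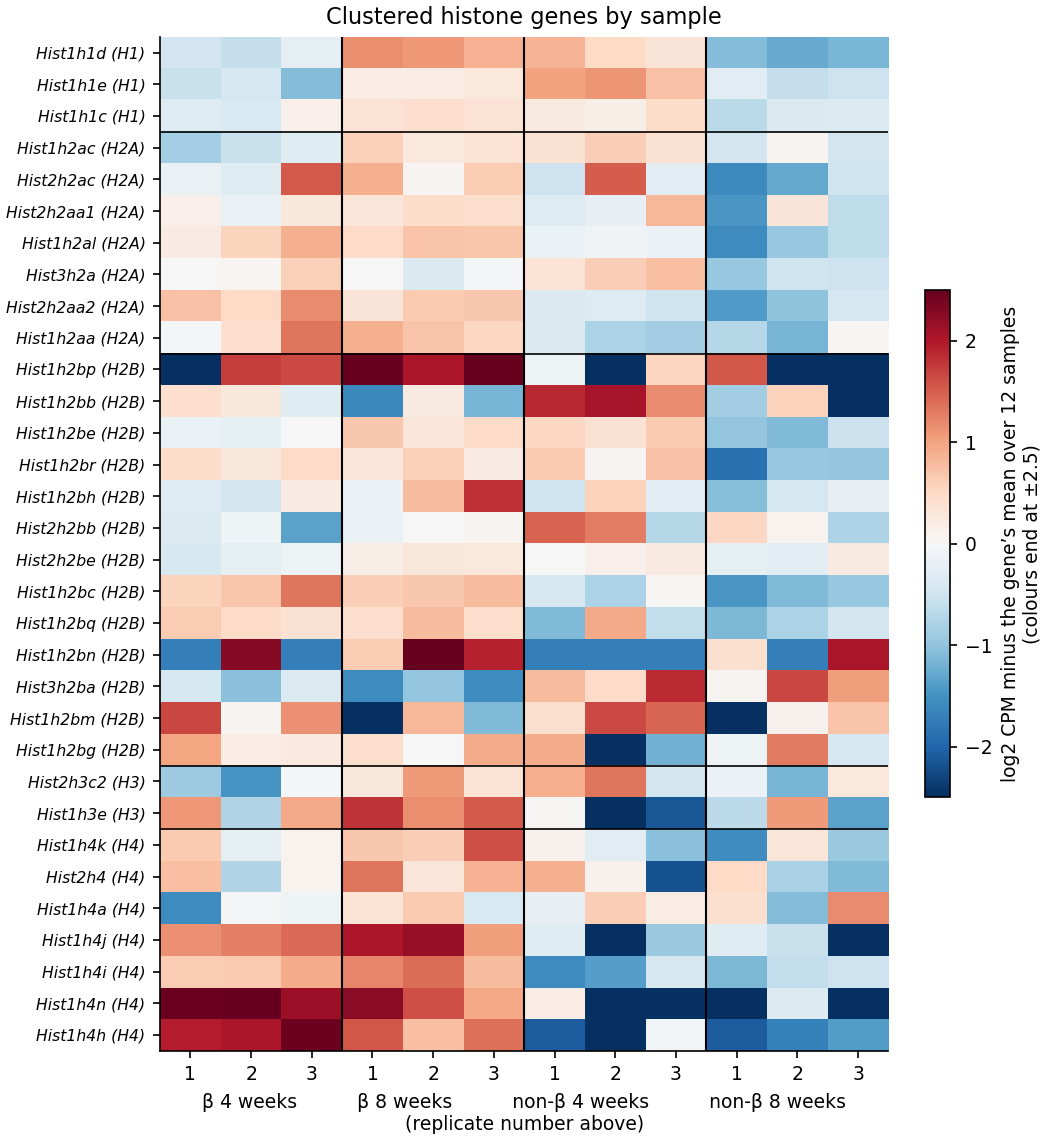
Log2 CPM of the 32 tested members (rows, grouped by histone type) in each of the 12 samples (columns, by group), centred on each gene's mean. Linker genes are high in 8-week β-cells and 4-week non-β-cells, whereas Hist1h4h, Hist1h4i, Hist1h4j and Hist1h4n are high in β-cells at both ages. Hist1h4h, Hist1h4j and Hist1h4n met the level rule through β-cell samples, so their direction was in part set by the rule.

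Summed over the tested members, linker and core transcripts had different age ratios in β-cells, a description for which no test was made. The linker sum was 219, 211 and 291 CPM at 4 weeks and 368, 379 and 361 CPM at 8 weeks, a ratio of means of 1.54, and the groups did not overlap. The core sum was 264, 268 and 372 CPM at 4 weeks and 290.4, 305 and 309 CPM at 8 weeks, with equal means of 301 CPM and overlapping groups. Among core types the H3 sum, of 2 genes, was an exception, at 2.49, 1.11 and 3.49 CPM and then 5.09, 6.56 and 4.85 CPM, without overlap and at a ratio of 2.33. In non-β-cells both sums were lower at 8 weeks, the linker sum at 342, 324 and 382 CPM and then 174, 210 and 214 CPM (ratio 0.57), and the core sum at 200.5, 210 and 235 CPM and then 98.3, 138 and 147 CPM (ratio 0.594).

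The linker share of the summed histone CPM was 44.4 ± 0.748% in 4-week β-cells, 55.1 ± 1.06% in 8-week β-cells, 61.9 ± 1.20% in 4-week non-β-cells and 61.2 ± 2.38% in 8-week non-β-cells (SD, n = 3). Between fractions the core sum was higher in β-cells at 4 and 8 weeks (log2 ratios 0.49 and 1.24), whereas the linker sum was lower at 4 weeks and higher at 8 weeks (-0.54 and 0.89). The linker sum is mostly Hist1h1c, and both sums weigh long gene models more than short ones. With each gene divided by its length, the β-cell age ratios were 1.49 for linker and 0.983 for core genes. On that scale the linker sum was below the core sum in every group. Linker and core sums were 148 and 444 CPM per kilobase in 4-week and 221 and 437 in 8-week β-cells. In non-β-cells they were 211 and 278 at 4 weeks and 123.5 and 175 at 8 weeks. The linker shares given above hold only for CPM not divided by length.

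**Figure D5:**
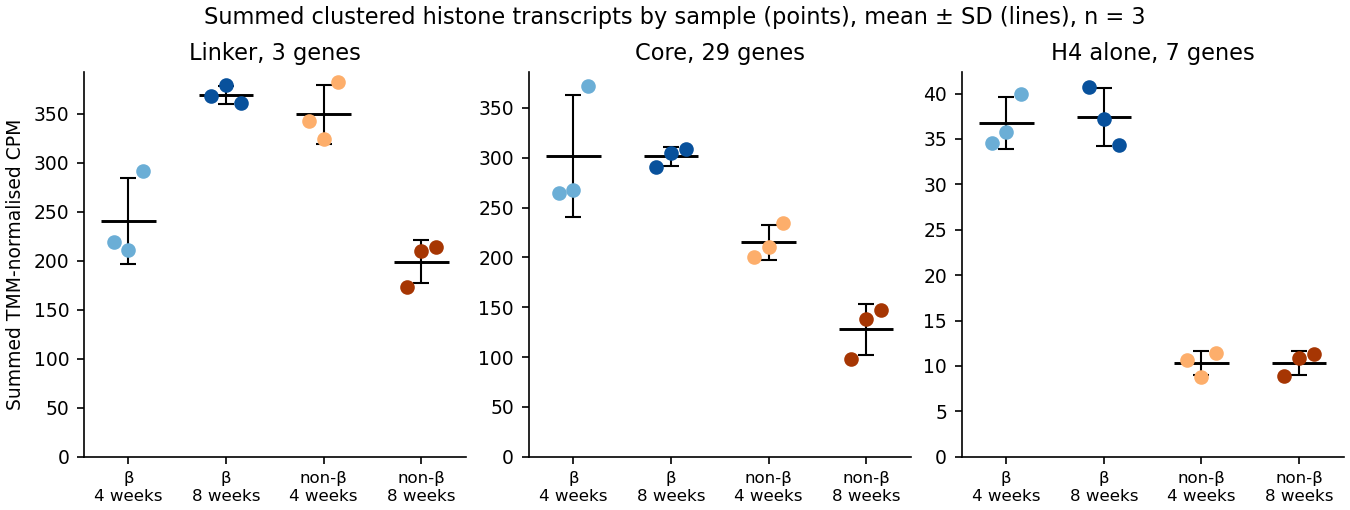
Summed TMM-scaled CPM of the 3 tested linker and 29 tested core genes in each sample (points), with the group mean and SD (n = 3). In β-cells the linker sum goes from 211 to 291 CPM at 4 weeks to 361 to 379 CPM at 8 weeks while the core sums overlap, and in non-β-cells both sums are lower at 8 weeks.

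The age change differed between fractions for 6 of 32 members, all with the higher value in β-cells, against 1.8% of all tested genes in that direction and 3.33% in the other. They were the 3 linkers, Hist1h2ac (log2 difference of changes 1.77, SE 0.46, limma-voom adjusted p = 0.0178), Hist1h2be (2.01, SE 0.25, adjusted p = 0.000372) and Hist1h2br (1.86, SE 0.51, adjusted p = 0.023). The median over the members was 0.90, beside 8e-04 over all tested genes, and 25 of 32 lay above 0. The known difference of Hist1h1d is among these, and without it 5 of 31 members were called, with a median of 0.89. Higher with age in β-cells and lower in non-β-cells were Hist1h1c, Hist1h1e and Hist1h2be, 3 of 31 members, and Hist1h1d as known, against 0.147% of all tested genes. Without both 4-week samples numbered 3, 9 members were called, and without β-cell sample 1 or 2 at 4 weeks 4 were called, when Hist1h2ac (limma-voom adjusted p = 0.0535 and 0.0529) and Hist1h2br (0.0504 and 0.0572) were lost. Hist1h2ac was also lost without 8-week non-β-cell sample 3 (limma-voom adjusted p = 0.0534), and Hist1h2br without 8-week β-cell sample 2, 4-week non-β-cell sample 1 or 8-week non-β-cell sample 1 or 3 (0.0633, 0.0576, 0.0877 and 0.0502).

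Of these 6 members, 5 have annotated transcripts that run more than 200 bases past the stem-loop, and in Hist1h2br no stem-loop was found. Split at 200 bases, a limit chosen after the values were seen, the 12 tested members with longer ends had a median difference of changes of 1.47 and 11 of 12 above 0. The 11 members with a stem-loop and at most 200 bases after it had a median of 0.34, with 6 above 0, and the 9 members without a match had a median of 0.69. In β-cells the medians were 0.89 in the first set and -0.24 in the second, and in non-β-cells -0.77 and -0.58. The first set, and the 5 members named at the start, include Hist1h1d, whose change was known beforehand. They also hold Hist1h1e and Hist1h2be, whose exons overlap. This split is a description without a test, and the sets also differ in level, histone type and overlap with neighbouring genes.

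The non-member genes whose log2 CPM was most like that of Hist1h1d over the 12 samples were Vegfa (Pearson's r 0.94), Fip1l1 (0.93), Slc35a4 (0.91), Gm34759 (0.90) and AC154492.2 (0.89). They were picked for this likeness, so the directions of their age differences follow in part from the choice and are a description. Vegfa, which encodes an endothelial growth factor, had log2 differences between ages of 0.28 and -0.39 in the β and non-β fractions. Fip1l1 had 0.10 and -0.18, Slc35a4 0.29 and -0.35, Gm34759 1.5 and -2.19, and AC154492.2 0.81 and -1.14. Among members, Hist1h2be came close to the linkers, with r of 0.92 with Hist1h1d, 0.90 with Hist1h1c and 0.66 with Hist1h1e.

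Genes that act with the clustered histones are described beside all tested genes, of which 8.59% rose and 9.35% fell with age in β-cells and 11.6% and 4.8% in non-β-cells. Of 21 tested genes of histone mRNA processing and decay, 2 rose (Srrt, 0.72, and Cstf3, 0.52) and 2 fell (Lsm10, -1, and Lsm1, -0.46) in β-cells, and Cstf3 rose (0.47) and Lsm10, a subunit of the U7 particle that cuts histone transcripts, fell (-0.95) in non-β-cells. Slbp, which encodes the stem-loop binding protein, was not called with age (log2 differences -0.04 and 0.04, limma-voom adjusted p = 0.886 and 0.888) and was lower in the β fraction at 4 and 8 weeks (-0.64 and -0.72, adjusted p = 0.00426 and 0.00179). Of 13 genes of histone gene transcription, 4 fell in β-cells (E2f1 -0.78, Hinfp -0.58, Nfyc -0.50 and Yy1 -0.44), and E2f1 fell in non-β-cells (-1.06). Npat, the coactivator of the histone loci, had differences of 0.06 and -0.05 and was not called. Of 20 chaperone genes, 1 rose (Anp32e) and 2 fell (Daxx and Set) in β-cells and 1 fell (Set) in non-β-cells.

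Of 11 tested replacement variants, 2 rose (H3f3b, 0.42, and H2afy2, 0.61) and 2 fell (H2afz, -0.48, and H2afv, -0.55) in β-cells. In non-β-cells 1 fell, H1f0, the linker variant of cells that have stopped dividing (-0.50, limma-voom adjusted p = 0.00549). H1f0 stood at 209 ± 14.5 and 219 ± 11.4 CPM in 4- and 8-week β-cells and at 249 ± 10.7 and 177 ± 22.2 CPM in non-β-cells (SD, n = 3), and its age change also differed between fractions (0.57, limma-voom adjusted p = 0.0484).

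Of 20 tested genes of S phase and mitosis, 3 fell in β-cells (Mki67, a marker of dividing cells, -1.61, the helicase subunit Mcm7, -0.89, and E2f1), with a median log2 difference of -0.36. In non-β-cells 3 rose, the helicase subunits Mcm5 (1.60), Mcm3 (1.00) and Mcm4 (0.47), and E2f1 fell, with a median of 0.33. The summed level of all 24 genes of the list was 207 to 229 CPM at 4 and 165 to 176 CPM at 8 weeks in β-cells, and 193 to 213 and 227 to 251 CPM in non-β-cells.

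Of the 38 members not tested, 5 had no count in any sample. Just inside the level rule were Hist1h2bn and Hist1h2bb, with a third-highest CPM of 1.08 and 1.18, and just outside were Hist3h2bb-ps and Hist1h3f, at 0.985 and 0.788. Of the tested members, 17 were above 1 CPM in all 12 samples and 8 read 0 in at least 1 sample. The samples above 1 CPM were all β-cells in 2 members and all non-β-cells in 1. Hist1h4h and Hist1h3e also had too few non-β-cell samples above 1 CPM to pass without β-cells. More than 50% of the 31-base words were shared with another gene in 15 of 32 tested members (median 48.95%), and for these the split of reads between near-identical copies is uncertain, whereas it was 11.4% for Hist1h1c, 34.7% for Hist1h1e and 3.5% of the long model of Hist1h1d.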

How the data were processed

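RNA of 12 samples was sequenced from a low-input, strand-specific total RNA library. The authors trimmed reads with fastp and estimated transcript abundance with kallisto against an Ensembl mouse transcriptome on GRCm38, and summed it to genes. Reads were reversely stranded; tool versions and the strand setting of the counting are not given in the sources used here. The deposited table holds these estimated counts (expected counts) per gene, which were rounded to whole numbers. Depth was 13755106 to 27040652 counts per sample, which limits genes near 1 CPM.

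Of 52962 Ensembl identifiers, 52002 matched a symbol in GENCODE M21 (GRCm38). Genes above 1 CPM in at least 3 samples were scaled by TMM (edgeR 4.0.16) and fitted with limma-voom (limma 3.58.1, R 4.3.3) to 4 group means over all 12 samples. The 5 contrasts were age within fraction, fraction within age and the difference between both age changes (β-cells minus non-β-cells). Tests were two-sided with Benjamini-Hochberg adjustment over all 15598 tested genes, and called means an adjusted p under 0.05. The code was tested on simulated data. Members and lists were chosen with earlier results of these data known, so lists are described by counts and medians and not tested. Of the alpha-cell list only Gcg, Ttr and Irx2 are given, and its other genes are not reported here.

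Named with values were the linker genes, the 2 members of each core type with the highest CPM per kilobase, the 2 largest called differences in each direction of each contrast, and the 5 non-members most like Hist1h1d. Other called members were named after their values were seen. Lengths came from GENCODE M21, an earlier release than the authors' transcriptome, so gene models, lengths and ends after the stem-loop may differ from those the counts rest on. RefSeq lengths are gene spans and were not used where these hold introns. Sequences came from M21, and promoters and second gene models from RefSeq (GRCm38.p6), which matched 70 members, 62 with a promoter entry. No protein or genome sequence was used. Alternatives tried were the quasi-likelihood test of edgeR, the Wald test of DESeq2 1.42.0, other scalings and filters, sample quality weights, fits of only the groups compared, a replicate block and fits without single samples.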

Additional observations from a re-analysis of the deposited data

Results flagged for a closer look

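For 6 members the change from 4 to 8 weeks was not the same in both fractions by the interaction term of the limma-voom model, which also called 1.8% of all tested genes in this direction. The difference of log2 changes was 1.30 for Hist1h1c, 2.30 for Hist1h1e, 1.77 for Hist1h2ac, 2.01 for Hist1h2be and 1.86 for Hist1h2br. For Hist1h1d it was 3.20, a value known when the genes were chosen. In each of the 3 linkers and in Hist1h2be all 3 8-week samples lay above all 3 4-week samples in β-cells and below them in non-β-cells. No group held enough samples for a search for single outlying values.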

How the results depend on the processing

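No difference of a called member changed sign under any alternative, and of 56 calls of members in the 5 comparisons 32 held in all settings run for them, 22 for the comparisons of groups and 21 for the difference of age changes. The calls of Hist1h1d, known beforehand, are among both counts, as they all held. The 56 also include calls of Hist1h2bb, Hist1h3e, Hist1h4h, Hist1h4j and Hist1h4n, which the level rule favoured in 1 fraction. Sample quality weights raised the count of members called to 11 in β-cells with age (9 higher and 2 lower) and to 11 for the difference of age changes. Leaving out 1 sample gave 3 to 8 members in β-cells with age, 6 to 9 in non-β-cells, 13 to 15 between fractions at 4 weeks, 12 to 21 at 8 weeks (12 without 8-week non-β-cell sample 1) and 4 to 8 for the difference of age changes. edgeR's quasi-likelihood test called 5, 8, 15, 18 and 6 members in these comparisons, and DESeq2 6, 10, 16, 18 and 7. Over all genes the β-cell age count of 2799 became 5382 with quality weights and 1684 to 1717 without any 1 of the 8-week β-cell samples, and the 800 genes called for the difference of age changes became 1562 with DESeq2, 2384 with quality weights and 450 to 984 without 1 sample. The labels do not say that sample numbers pair the groups, and the pairing check was not met: deviations of same-numbered samples correlated at 0.0797 to 0.306 between fractions at 4 weeks (mean 0.173, against -0.09 for different numbers) and at 0.008 to 0.0487 at 8 weeks, and not every sample correlated best with its own number. The replicate block joined same-numbered samples across ages within a fraction for the age comparisons, and across fractions within an age for the others. Across ages, same-numbered samples correlated at -0.0063 to 0.0343 in β-cells and -0.0046 to 0.1244 in non-β-cells, so the age block has little basis. With the block, 5, 8, 19, 19 and 9 members were called, and 2042 genes for the difference of age changes. Hist2h2be and Hist1h2ac lost the β-cell age call (limma-voom adjusted p = 0.0713 and 0.0735), Hist1h2bb the non-β-cell call (0.118) and Hist1h2ac and Hist1h3e the 8-week call (0.0696 and 0.0688). Gained were Hist1h2bc in non-β-cells, Hist1h3e, Hist3h2a, Hist2h3c2 and Hist2h2bb at 4 weeks, Hist1h2bh at 8 weeks and Hist1h2bc, Hist3h2a and Hist1h2al for the difference of age changes (limma-voom adjusted p 0.00117 to 0.0433). The core sum in β-cells moved between a log2 ratio of -0.09 and 0.18 when 1 sample was left out, and the linker sum between 0.53 and 0.78. The causes of these shifts were not tested. Members near 1 CPM carry few counts, and the number of reads in each part of the long Hist1h1d model is unknown here.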
